A study of Mus musculus with 10 samples.

Results

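AP-1 is a dimeric transcription factor whose subunits bind DNA through a basic region and a leucine zipper. FOS proteins need a JUN partner to form stable dimers, JUN proteins also pair with one another, and ATF and JDP proteins pair with JUN and often act as repressors. Many of the genes are early response genes, transcribed within minutes of a growth factor, of stress or of the dissociation of a tissue, and in the endothelium AP-1 is known as a nuclear target of VEGF signalling. The genes described here were 10 members chosen by symbol, namely the 4 FOS genes Fos, Fosb, Fosl1 and Fosl2, the 3 JUN genes Jun, Junb and Jund, and the 3 ATF/JDP genes Atf3, Jdp2 and Batf3. Each symbol matched 1 gene of the authors' matrix, which holds 15686 genes, and 1 of the 55487 genes of the count tables. All 10 were among the 22596 genes that passed the filter on low counts and were tested.

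Nuclear RNA was sequenced from mouse ES cells of the HM-1 line and from 4 populations that arise from them in serum in vitro, with 2 libraries per stage and 10 in all. ES cells were grown with LIF. HB cells, the hemangioblasts that give rise to endothelium and blood, were taken on magnetic columns as FLK1+ cells from embryoid bodies that had been dissociated with TrypLE after 3 d. HB cells were cultured further in blast medium with VEGF, IL-6 and conditioned medium, and KIT+ cells were sorted from it by flow cytometry. Those with TIE2 but not CD41 are called HE1, those with both HE2, and those with CD41 but not TIE2 HP. In the scheme of the study, HE1 and HE2 stand for early and late hemogenic endothelium and HP for the blood progenitors it releases. Medium and sorting thus changed from ES to HB and from HB to HE1. In these steps the stage and the handling cannot be told apart for early response genes. HE1, HE2 and HP share the medium and the method of sorting and differ in the gate. In every step, fewer cells of a type and less RNA per cell cannot be told apart, since each library is a bulk sample. Total counts lay between 24920434 and 58782055 per library, so that a floor of 3 counts was between 0.0532 and 0.126 CPM, which covers counting error only.

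Most markers of the stages followed the labels. The summed CPM of 5 ES markers (Pou5f1, Nanog, Sox2, Zfp42 and Esrrb) was 1998 and 1920 in the ES libraries and between 1.40 and 98.8 in the other 8. Mesp1, a gene of early mesoderm, had 74.7 and 78.4 CPM in HB. Cdh5, which encodes VE-cadherin, had its highest mean in HE1 with 1431 and 798 CPM, and Ptprc, which encodes CD45, in HP with 38.7 and 47.3 CPM. Runx1 had 73.8 and 84.7 CPM in HB and 52.4 and 58.6 in HE1, and rose to 295 and 519 in HE2. Kit, listed with the endothelial markers, was higher in HE2 and HP than in HE1 (log2 fold changes of 1.55 and 1.49). Itga2b, which encodes CD41, had 227 and 127 CPM in HE1, although HE1 was sorted as CD41-negative. It had 505 and 469 CPM in HE2 and was not higher in HP (−0.34 ± 0.25). Kdr, which encodes FLK1, was not particular to HB, with 957 and 1284 CPM in HB and 1265 and 718 in HE1. The libraries of a stage were not alike in these markers. All 5 ES markers were higher in HE1 replicate 2 than in HE1 replicate 1, with sums of 6.31 and 67.0 CPM in replicates 1 and 2, and all 5 endothelial markers (Cdh5, Tek, Kit, Sox17 and Pecam1) were lower in it, with sums of 2983 and 1734 CPM. In HE2 replicate 2, 4 of 5 endothelial markers were lower than in HE2 replicate 1 (sums of 1892 and 1330 CPM) and 4 of 5 blood progenitor markers (Itga2b, Runx1, Spi1, Gfi1b and Ptprc) were higher (sums of 871 and 1138 CPM).

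To compare the members with one another, CPM were divided by the length of the exons in kb. On this scale JUN genes held most of the AP-1 RNA at every stage. Their share of the summed level of the 10 genes was 93.4% in both ES libraries, 75.3% and 78.4% (HB), 74.9% and 69.7% (HE1), 81.8% and 90.5% (HE2), and 89.9% and 84.3% (HP). The FOS share was highest in HB with 20.8% and 17.8%, against 4.02% and 4.16% in ES. The ATF/JDP share was highest in HE1 with 15.8% and 17.4%, against 3.89% and 3.88% in HB. In neither case did these libraries overlap with those of any other stage. Jund led in ES with 90.9 ± 5.26 CPM per kb (SD, n = 2), ahead of Junb with 32.5 ± 0.230 and Jun with 9.54 ± 0.191. In HB, Jun had the highest mean with 113 ± 19.4 CPM per kb, but its libraries overlapped with those of Jund with 93.2 ± 14.4. From HE1 on Jund led again and Jun had the second highest mean, overlapping with Junb in HE1. The highest gene outside the JUN group was Fos in ES (2.71 ± 0.0662) and HB (43.3 ± 10.7), Atf3 in HE1 (36.8 ± 3.42) and HE2 (12.6 ± 10.97), and Fos in HP (6.53 ± 1.87 CPM per kb). In HE2 and HP the libraries of these genes overlapped with those of the gene next in order, Fos and Atf3 respectively. Fosl1 and Batf3 were the lowest pair in every stage.

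**Figure D1:**
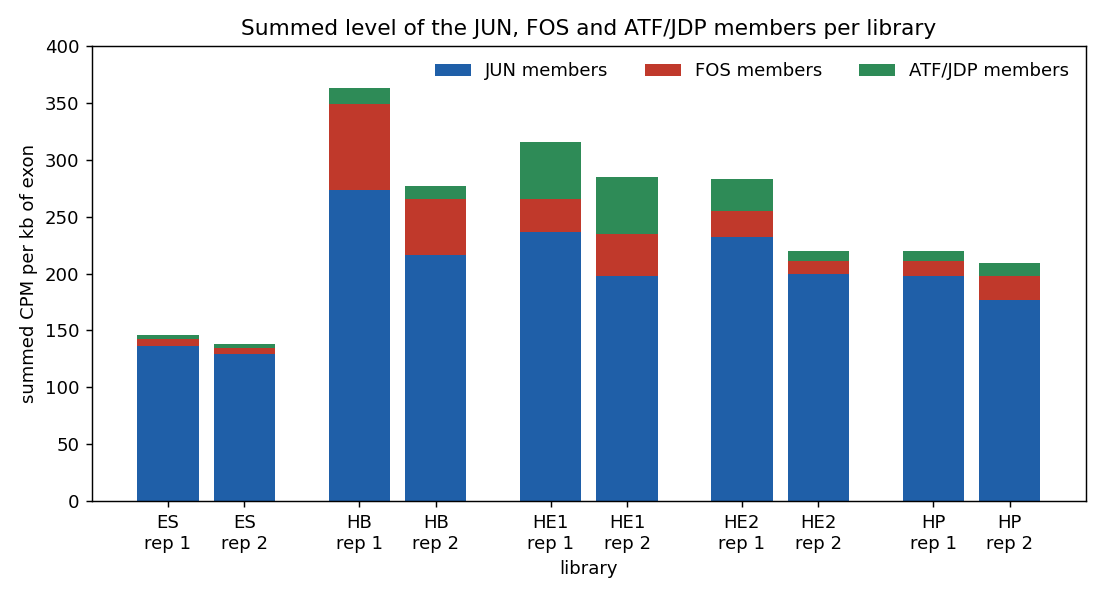
Summed CPM per kb of exon (y axis, from 0) of the JUN, FOS and ATF/JDP genes in each of the 10 libraries (x axis), 1 bar per library. The JUN part is the largest in every bar, the FOS part is largest in HB and the ATF/JDP part in HE1.

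Fos and Fosb, the FOS genes with a strong activation domain, had their highest mean in HB. Fos had 6.47 and 6.25 CPM (ES), 120 and 84.1 (HB), 29.8 and 21.1 (HE1), 23.6 and 13.5 (HE2) and 12.3 and 18.5 (HP). HB stood above and ES below all other libraries, and HE1, HE2 and HP overlapped with their neighbours in this order. Fosb had 5.48 and 4.99 CPM (ES), 119 and 52.8 (HB), 32.3 and 61.6 (HE1), 32.9 and 13.2 (HE2) and 11.6 and 37.3 (HP). Only the ES libraries of Fosb stood apart, since HB, HE1, HP and HE2 overlapped pairwise in that order.

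Fosl1 and Fosl2 encode FRA1 and FRA2, which lack that domain, and had their highest mean in HE1. Fosl2 had 18.1 and 17.6 CPM (ES), 50.8 and 47.3 (HB), 104 and 146 (HE1), 66.9 and 39.6 (HE2) and 55.3 and 57.7 (HP). The HE1 libraries of Fosl2 were above all others and the ES libraries below them, while HE2 overlapped with both HB and HP. Fosl1 was low, with 0.763 and 0.975 CPM (ES), 0.397 and 0.0845 (HB), 1.85 and 6.01 (HE1), 1.92 and 0.349 (HE2) and 0.776 and 2.03 (HP). The value in HB replicate 2 is a count of 3, the floor, with an exact Poisson interval of 0.619 to 8.77 counts (95%, counting error only). For Fosl1 the mean was lowest in HB, but HE2 replicate 2 lay between the HB libraries, and all other neighbours in the order of means except ES and HB overlapped.

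The 3 JUN genes differed from one another. Jun, the partner most often found with FOS, had 30.0 and 30.8 CPM (ES), 403 and 316 (HB), 266 and 182 (HE1), 227 and 149 (HE2) and 139 and 167 (HP). As with Fos, HB was above and ES below all other libraries, and HE1, HE2 and HP overlapped in turn. Junb, a weaker activator that can restrain JUN, had 59.0 and 58.4 CPM (ES), 78.9 and 62.7 (HB), 98.0 and 104 (HE1), 76.8 and 76.1 (HE2) and 58.9 and 58.7 (HP). The ratio of its highest to its lowest stage mean, 101 and 58.7 CPM, was smaller than that of any other member but Jund. Jund, known for steady expression, had between 138 and 203 CPM in the 10 libraries, and all neighbours in the order of its stage means overlapped.

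The 3 ATF/JDP genes had their highest mean in HE1. Atf3, a stress-induced gene, had 3.90 and 3.24 CPM (ES), 25.2 and 19.2 (HB), 84.5 and 74.1 (HE1), 43.9 and 10.4 (HE2) and 8.46 and 16.9 (HP). HE1 stood above all other libraries of Atf3, and its HE2 libraries lay on either side of both HB libraries. Jdp2, a repressor that pairs with JUN, had 3.97 and 3.53 CPM (ES), 3.01 and 2.51 (HB), 16.5 and 26.2 (HE1), 14.0 and 7.11 (HE2) and 10.4 and 7.73 (HP). ES and HB were below the 3 later stages, with HB the lowest. Batf3, known from dendritic cells and without an activation domain of its own, had 0.177 and 0.373 CPM (ES), 1.69 and 1.01 (HB), 4.67 and 4.46 (HE1), 2.59 and 0.857 (HE2) and 0.525 and 0.954 (HP). Its ES values rest on counts of 10 and 13. HE1 was again above all other libraries.

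**Figure D2:**
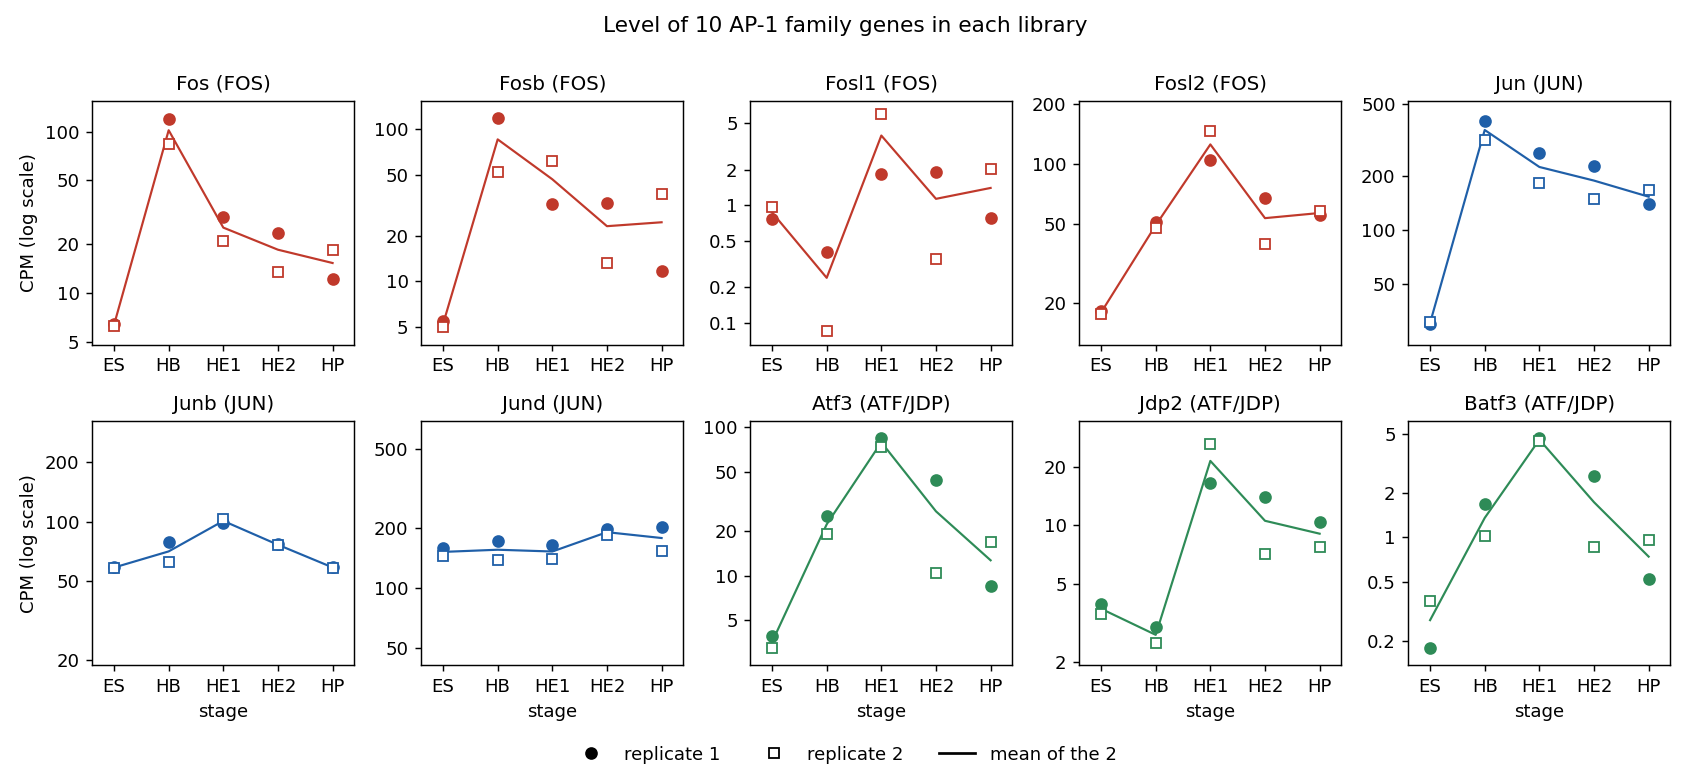
CPM (y axis, log scale, 1 range per gene) of the 10 genes by stage (x axis). Filled circles are replicate 1, open squares replicate 2 and lines join the means of the 2 libraries. Fos, Fosb and Jun peak in HB, Fosl1, Fosl2, Junb, Atf3, Jdp2 and Batf3 in HE1, and Jund stays between 138 and 203 CPM.

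The step from ES to HB asks what changes when pluripotent cells become FLK1+ mesoderm. Calls needed a change of 2-fold or more along with an adjusted p under 0.05 (Benjamini-Hochberg). In HB 6 of the 10 members were higher than in ES and 0 were lower, while 11.5% of the tested genes were called higher and 17.3% lower. Fosb and Fos had log2 fold changes of 4.03 ± 0.65 (SE) and 3.999 ± 0.33 (adjusted p = 0.000728 and 1.09e-05, edgeR), and Jun had 3.56 ± 0.26 (4.78e-06). Atf3 rose by 2.63 ± 0.56, Batf3 by 2.33 ± 0.65 and Fosl2 by 1.46 ± 0.24 on the log2 scale. Each of these 6 genes was higher in both HB libraries than in either ES library. Junb (0.27 ± 0.14), Jund (0.04 ± 0.18), Jdp2 (−0.45 ± 0.36) and Fosl1 (−1.87 ± 0.99) did not pass the test. The median log2 fold change of the 10 genes was 1.89, and that of all tested genes 0. In the same step 5 of 5 mesoderm markers (median 6.70) were higher and 5 of 5 ES markers (median −5.82) lower. Of 5 blood progenitor markers 4 were higher and 1 lower (median 3.60). Of 5 endothelial markers 2 were higher and 2 lower, and of 4 muscle genes 1 was higher and 2 lower. The Batf3 call was lost without ES replicate 1 (1.85, adjusted p = 0.128) or without HB replicate 1 (1.94, adjusted p = 0.0856). Fosl1 was called lower in a fit without the filter on low counts (−1.85, adjusted p = 0.0102) and in one with only the 4 libraries compared (−1.85, adjusted p = 0.0320). At an unadjusted p under 0.05, 0 members and 5977 of all tested genes were lower. Of the members limma-voom and DESeq2 called 0 lower as well, and of all genes 4133 and 3493.

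From HB to HE1, when endothelial genes come up, the members parted. In HE1 5 of 10 were higher, namely Fosl1 (4.05 ± 0.99), Jdp2 (2.96 ± 0.37), Atf3 (1.84 ± 0.53), Batf3 (1.76 ± 0.58) and Fosl2 (1.35 ± 0.24), and 1 was lower, Fos with −2.00 ± 0.31 (adjusted p = 0.000938, edgeR). Of all tested genes 12.7% were called higher and 8.19% lower. All 3 ATF/JDP genes were among those that rose, and no JUN gene was. Markers of other cell types rose in the same step, with 3 of 4 cardiac and smooth muscle genes (median 4.81, with Myl7 lower), 3 of 3 primitive erythroid genes (median 6.57) and 2 of 4 macrophage genes (median 3.68). So did 4 of 5 endothelial markers (median 2.86) and 2 of 5 blood progenitor markers, while 4 of 5 mesoderm markers fell (median −4.96). Jun was lower and Junb higher by less than 2-fold (−0.68 ± 0.24 and 0.51 ± 0.14), with adjusted p-values of 0.0491 and 0.0197. For Fosb the change of −0.87 ± 0.57 was within the spread of its libraries (adjusted p = 0.268). The median was 0.93 for the members and 0.04 for all tested genes. Fewer of all tested genes were called higher without HB replicate 1, HB replicate 2 or HE1 replicate 2, and more without HE1 replicate 1. Calls for Jdp2, Fosl2 and Fos held with each library left out. That of Batf3, with an adjusted p of 0.0404, held in only 9 of the 17 other settings and was lost with, for example, library totals in place of TMM (0.0523). Atf3 missed the threshold without any 1 of the 4 libraries compared, with adjusted p-values of 0.0566 to 0.150 and log2 fold changes of 1.61 to 1.98. Fosl1 missed it without HB replicate 2 (3.26, adjusted p = 0.0978) or without HE1 replicate 2 (2.97, adjusted p = 0.0706), and without HE1 replicate 1 Jun was called lower (−1.03, adjusted p = 0.0154). The count of higher members was 2 without HB replicate 2 or HE1 replicate 2, and 3 without HB replicate 1 or HE1 replicate 1.

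From HE1 to HE2, when RUNX1 is up-regulated, 9 of the 10 log2 fold changes were negative but a single member was called. Fosl2 was lower in HE2 with −1.23 ± 0.23 (adjusted p = 0.0128, edgeR), and 0 members were higher. Of all tested genes 3.26% were called higher and 5.39% lower. In the same step 5 of 5 ES markers (median −3.79), 2 of 5 mesoderm markers and 1 of 4 muscle genes were lower, and 3 of 3 erythroid genes (median 2.08), 5 of 5 blood progenitor markers (median 3.44) and 1 of 4 macrophage genes were higher. Of 5 endothelial markers 1 was higher (Kit, 1.55 ± 0.34) and 1 lower (Sox17, −2.14 ± 0.61), with a median of −0.81. The median was −1.02 for the members and −0.08 for all tested genes. Atf3 (−1.54 ± 0.52, adjusted p = 0.0701) and Jdp2 (−1.02 ± 0.34, adjusted p = 0.0698) just missed the threshold, and with limma-voom both passed it (0.0291 and 0.0472). At an unadjusted p under 0.05, 5 members were lower and 0 higher, while 4442 of all tested genes were lower and 3549 higher. Of the members limma-voom and DESeq2 called 0 higher, and of all genes 769 and 789. The count of lower members depended on the filter and on single libraries, and the number of all genes called lower moved the same way. Without the filter on low counts 2864 genes were lower, against 1217 with it. For Atf3 the adjusted p (edgeR) was 6.95e-10 without the filter and 0.0701 with it, at log2 fold changes of −1.53 and −1.54. The HE1 and HE2 libraries of Fosb and of Fosl1 overlapped. Without the filter the count of members was 6, with Fosb, Fosl1, Atf3, Jdp2 and Batf3 called beside Fosl2. It was 5 without HE2 replicate 1, where Fosl1 (−3.46), Atf3 (−2.90), Batf3 (−2.39) and Jdp2 (−1.56) were called beside Fosl2, and 0 without HE2 replicate 2, where Fosl2 had −0.89 (adjusted p = 0.0657). Without HE1 replicate 2, the library with more ES marker RNA, it was 0 and Fosl2 had −0.97 (adjusted p = 0.0742). Without HE1 replicate 1 it was 2, Jdp2 being called as well (−1.29, adjusted p = 0.0307). Leaving out any 1 of the HE1 and HE2 libraries thus changed the count. With only the 4 libraries compared it was 0 and Fosl2 had −1.25 (adjusted p = 0.0560).

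Between HE2 and HP 0 members were called in either direction, as were 0% of the tested genes higher and 0% lower by edgeR. At an unadjusted p under 0.05, 670 tested genes were higher and 1113 lower, with 1 member (Junb, −0.38 ± 0.14) among the latter. With limma-voom 35 genes were higher and 27 lower, and with DESeq2 107 and 194, and neither called a member. Without the filter on low counts 145 genes were higher and 389 lower. Genes were called in both directions without HE2 replicate 2 as well. Atf3 had −1.79 without HE2 replicate 2. It was called lower in HP in an edgeR fit without the filter on low counts (−1.11, adjusted p = 0.000102). With the filter it had nearly the same change (−1.10) and an adjusted p of 0.677. Its HE2 libraries (43.9 and 10.4 CPM) overlapped with its HP libraries (8.46 and 16.9 CPM). HE1 and HP were compared as well, with the HE1 libraries of the step above. In HP 4 members were lower than in HE1 and 0 were higher, while 11.2% of the tested genes were called lower and 5.35% higher. They were Atf3 with −2.65 ± 0.54 (adjusted p = 0.00643), Batf3 with −2.64 ± 0.61 (0.0110), Jdp2 with −1.24 ± 0.34 (0.0256) and Fosl2 with −1.15 ± 0.23 (0.00617). In the same comparison 5 of 5 ES markers (median −3.60), 4 of 5 mesoderm markers (median −1.55), 4 of 5 endothelial markers (median −2.77) and 2 of 4 muscle genes were lower. Higher were 3 of 3 erythroid genes (median 2.98), 3 of 4 macrophage genes (median 3.03) and 5 of 5 blood progenitor markers (median 3.94). Junb had the lowest adjusted p of all 10 (0.00345) at a change of less than 2-fold (−0.78 ± 0.14). At an unadjusted p under 0.05, 7 members were lower and 0 higher, while 4731 of all tested genes were lower and 3990 higher. Of the members limma-voom and DESeq2 called 0 higher, and of all genes 1261 and 1156. The count of lower members fell without HP replicate 1, HE1 replicate 2 or HP replicate 2, as did that of all tested genes. Without HP replicate 1 the count was 0, with log2 fold changes of −2.21 for Atf3, −2.24 for Batf3, −1.45 for Jdp2 and −1.10 for Fosl2 and adjusted p-values of 0.0555 to 0.0990. Without HE1 replicate 2 it was 2, since Fosl2 (−0.88) was short of 2-fold and Jdp2 had an adjusted p of 0.173. Without HP replicate 2 it was 3, Jdp2 (−1.01, adjusted p = 0.118) being lost.

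Across all 5 stages 9 of the 10 members changed in the F test of any difference between stages, against 66.7% of the tested genes. Jund was the exception with an adjusted p of 0.310. Without HB replicate 2 or HE1 replicate 2 the count was 8.

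Early response genes vary with handling, and the 2 libraries of a stage were therefore compared gene by gene. Nothing in the labels says whether they came from separate cultures, although the study describes biologically independent replicates, so that p-values measure the spread between these samples. The ES libraries were alike, with a median absolute log2 difference of 0.13 over the 10 members and 0.10 over all tested genes. In HB all 10 members were lower in replicate 2, by a median of 0.37 against an absolute difference of 0.23 over all tested genes, of which 50.5% were lower. Fosb and Fosl1 differed most, with −1.17 and −1.68. In HE2 again all 10 were lower in replicate 2, by a median of 0.89 against 0.34 over all tested genes, of which 51.8% were lower. Here Fosl1 (−2.28), Atf3 (−2.06), Batf3 (−1.53) and Fosb (−1.31) lay more than 2-fold apart, and Junb (−0.01) and Jund (−0.10) did not differ by more than the median gene. In HE1, by contrast, 5 members were higher and 5 lower in replicate 2, and in HP 7 were higher and 3 lower, with Fosb (1.68) and Fosl1 (1.33) at the top. Members are not independent replicates of a library, so that these counts are a description.

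**Figure D3:**
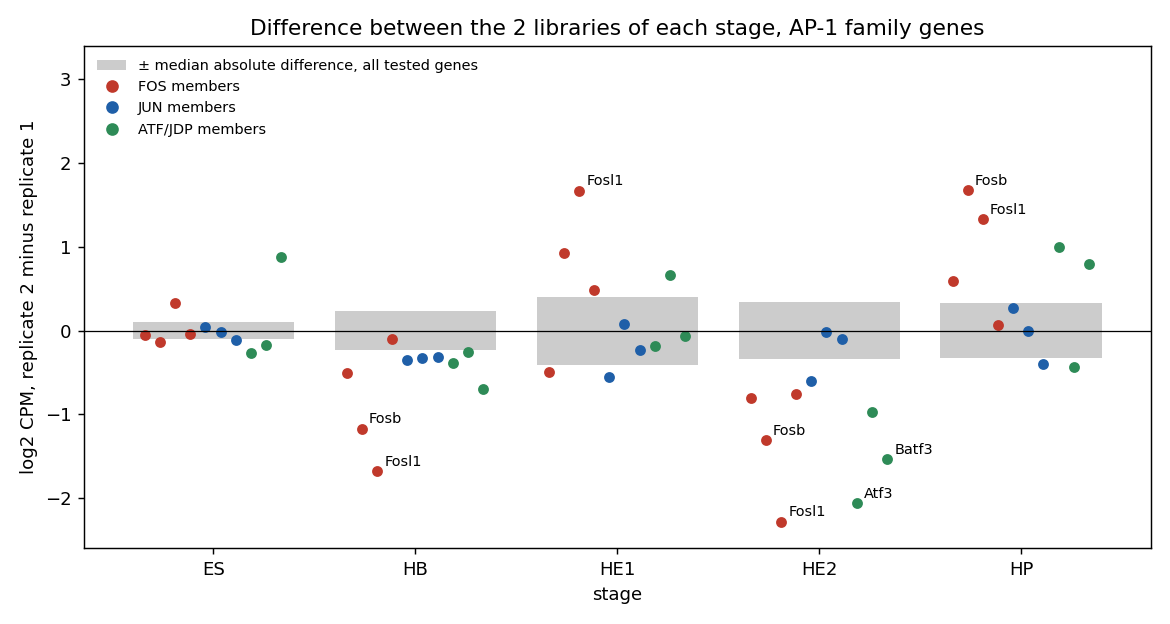
Log2 CPM of replicate 2 minus replicate 1 (y axis) within each stage (x axis) for the 10 genes, 1 point per gene, coloured by group and ordered from left to right as Fos, Fosb, Fosl1, Fosl2, Jun, Junb, Jund, Atf3, Jdp2 and Batf3. The grey band is the median absolute difference of all tested genes on either side of 0, and all 10 points lie below 0 in HB and in HE2.

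Other genes differed between the libraries too, and their values are given for replicate 1 first. Of 18 other immediate early genes, 13 were lower in HB replicate 2 and 11 in HE2 replicate 2. Their median log2 differences were −0.24 and −0.47. HE1 replicate 2 also had 11 lower (median −0.02), HP replicate 2 had 10 (−0.02) and ES replicate 2 had 7 (0.04). The HE2 count was thus equal to that of HE1, where the members were split. The share of all tested genes lower in replicate 2 was between 50.5% (HB) and 52.2% (HP) at every stage. Of 5 heat shock genes 3 were higher in HE2 replicate 2 (sums of 285 and 341 CPM, of which Hsph1 alone had 174 and 235). In HE2, 10 of 11 tested genes with known AP-1 sites were lower in replicate 2, with a median log2 difference of −1.17, and the most abundant, Ccnd1, had 166 and 34.5 CPM. In HE1, 9 of the 11 were higher in replicate 2 (median 0.61), in HB 4 (−0.15) and in HP 7 (0.12). Of cell type markers, 4 of 5 endothelial genes, 4 of 4 cardiac and smooth muscle genes (Tnnt2, Myl7, Acta2 and Tagln, sums of 648 and 401 CPM), 3 of 3 primitive erythroid genes (2127 and 1628 CPM) and 4 of 4 macrophage genes (27.2 and 20.3 CPM) were lower in HE2 replicate 2. Cdh5, Acta2, Hbb-bh1 and Lyz2 were the most abundant of these lists, and none of their genes was at 0 in both libraries. In HE2 replicate 2 the levels of 6 of the 10 members (Fos, Fosb, Jun, Jund, Atf3 and Batf3) lay between those of the 2 HP libraries, while Fosl1, Fosl2 and Jdp2 were below both and Junb above. In HE1 replicate 2, in which Fosb, Fosl1, Fosl2 and Jdp2 were higher than in replicate 1, all 5 ES markers (Pou5f1 the most abundant with 2.82 and 26.3 CPM), all 4 muscle genes (sums of 630 and 994 CPM) and all 5 heat shock genes (sums of 280 and 385 CPM) were higher too. So were all 4 macrophage genes (9.17 and 17.2 CPM), while all 3 erythroid genes were lower (522 and 253 CPM). Hspa1a, an inducible HSP70 gene, had 2.10 CPM in HE1 replicate 1 and 15.3 in replicate 2. In HB replicate 2 all 5 ES markers were lower (sums of 98.8 and 74.5 CPM) and 4 of 5 mesoderm markers (Kdr, T, Etv2, Mesp1 and Pdgfra) higher (1428 and 1751 CPM), while heat shock genes were higher in 3 of 5. In HP replicate 2 all 5 ES markers (6.05 and 1.40 CPM) and all 3 erythroid genes (4567 and 2315 CPM) were lower. The part of cell composition, stress or handling in the differences between libraries was not tested.

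The other immediate early genes did not share one pattern. Relative to ES, HB had 6 of 18 higher and 3 lower (11.5% and 17.3% of all tested genes), and their median log2 fold change was 0.55. Dusp2, a phosphatase that inactivates MAP kinases, rose by 5.26 ± 0.29 and Egr2, a zinc finger factor, by 3.07 ± 0.63, while Arc fell with −5.26 ± 0.97. From HB to HE1, 1 was higher (Arc, 4.41 ± 0.95) and 1 lower (Egr1, −1.26 ± 0.27), where 12.7% of all tested genes were called higher and 8.19% lower. Arc had 3.11 CPM in HE1 replicate 1 and 28.9 in replicate 2, and 29.4 and 28.6 in the ES libraries. The ES markers summed to 67.0 CPM in HE1 replicate 2, against 1998 and 1920 in ES. The source of the Arc RNA was not tested. Egr3 had 1.60 and 10.4 CPM in HE1. From HE1 to HE2 4 were lower (5.39% of all tested genes), Arc, Egr3 (−2.55 ± 0.70) and Nr4a1 (−1.43 ± 0.39) foremost, and from HE1 to HP 7 were lower (11.2% of all tested genes), with Arc, Egr3 and Nr4a1 (−2.39 ± 0.40) again the 3 largest. In both comparisons 0 were higher by edgeR. Rhob, the most abundant by the mean over all 10 libraries though not in ES, had 29.2 and 29.8 CPM in ES and 450 and 318 in HE1.

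Of 13 tested kinases upstream of AP-1, most did not change by 2-fold. Map3k1, which activates the JNK pathway, was the only one called from ES to HB (1.04 ± 0.14; 11.5% of all tested genes were called higher) and fell from HB to HE1 with −1.62 ± 0.14, as did Map2k1, which encodes MEK1 (−1.25 ± 0.15), and Rps6ka1 (−1.09 ± 0.19), where 8.19% of all tested genes were called lower. From HE1 to HE2 Rps6ka3 rose by 1.44 ± 0.27 and Mapk11, which encodes p38 beta, fell with −1.20 ± 0.28, and the same held from HE1 to HP (1.32 ± 0.26 and −1.87 ± 0.29). Of all tested genes 3.26% were called higher and 5.39% lower in the first comparison, and 5.35% and 11.2% in the second. Of the 6 genes for SRF and its cofactors, which drive Fos through the serum response element, 1 rose from ES to HB and 3 from HB to HE1 (11.5% and 12.7% of all tested genes). Elk3, the most abundant in HE1 and HE2 but not in the other stages, was called in both steps (1.98 ± 0.25 and 2.15 ± 0.24) and was lower in HP than in HE1 (−1.65 ± 0.24). Elk4 (1.06 ± 0.16) and Mrtfb (1.02 ± 0.16) also rose from HB to HE1, whereas Srf itself had between 52.3 and 66.5 CPM in all libraries.

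Genes with known AP-1 sites had a negative median from ES to HB and a positive one from HB to HE1. Among 11 tested, HB had 2 higher and 6 lower (median −1.46; 11.5% and 17.3% of all tested genes), among them Spp1 at −9.09 ± 0.65 and Plaur, the urokinase receptor, at −4.43 ± 0.46. From HB to HE1 7 were higher and 1 lower (median 1.28; 12.7% and 8.19% of all tested genes), among them Plaur (4.51 ± 0.46) and Plau (3.51 ± 0.41). From HE1 to HE2 3 were lower (5.39% of all tested genes), among them Mmp9 (−2.47 ± 0.59) and Hbegf (−1.56 ± 0.35), and 1 was higher (3.26%), Spp1 with 1.89 ± 0.49. From HE1 to HP 6 were lower and 1 higher (11.2% and 5.35% of all tested genes), with Spp1 at 2.79 ± 0.49, Mmp9 at −2.78 ± 0.60 and Ccnd1, the most abundant in HB, HE1 and HE2, at −2.21 ± 0.51. Of 5 heat shock genes 1 was lower in HB than in ES (Hspb1, −3.90 ± 0.47; 17.3% of all tested genes). In HE1 3 were higher than in HB (12.7% of all tested genes; Hspa1a 3.14 ± 0.80, Hspb1 2.39 ± 0.45 and Hspa1b 1.43 ± 0.43). Against HE1, 2 were lower in HE2 (5.39%; Hspa1a −3.38 ± 0.81 and Hspa1b −1.78 ± 0.44), and 3 in HP (11.2%; Hspa1a −3.73 ± 0.83, Hspa1b −2.10 ± 0.45 and Hspb1 −1.46 ± 0.43). Hsph1, the most abundant, was not called. Of 5 tested bZIP genes related to AP-1, Creb5 was the single one called, higher in HE1 than in HB (2.60 ± 0.43; 12.7% of all tested genes) and lower in HP than in HE1 (−1.70 ± 0.41; 11.2%). Atf4, the most abundant in all stages but ES, had between 84.3 and 143 CPM. Between HE2 and HP 0 genes of these lists were called by edgeR, as among all tested genes.

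Over the 10 libraries the Pearson correlation of log2 CPM was 0.98 between Atf3 and Batf3, 0.93 between Atf3 and Fosl2 and 0.91 between Fosl2 and Batf3. The other pairs among the 6 members with their highest mean in HE1 had lower values, from 0.43 (Fosl1 and Atf3) to 0.88 (Junb and Batf3). Fos, Fosb and Jun, with their peak in HB, had 0.90 (Fos and Fosb), 0.88 (Fos and Jun) and 0.90 (Fosb and Jun). Fosl1 was closest to Jdp2 with 0.82, and no correlation of Jund with another member was above 0.24. These values describe 5 pairs of libraries that share their stage, and no p is given. Atf3 and Batf3 also lie near each other on chromosome 1 (mm10), at chr1:191170296-191218039 on the minus strand and chr1:191097847-191108945 on the plus strand. Fos and Jdp2 lie near each other on chromosome 12, at chr12:85473890-85477273 and chr12:85599027-85639878, both on the plus strand, and their correlation was −0.18. The part of position in these correlations was not tested. Among 13550 other genes, those most like each member were Bbs1, Col23a1 and Sema3a for Fos (0.98), E130317F20Rik, Iqce and Uggt2 for Fosb (0.95 to 0.97), and Mir1903, Nfxl1 and Prox1 for Jun (0.98 to 0.99). Those for Fosl2 were Grip1, Tgfb2 and Tnc (0.98 to 0.99), for Atf3 Rgl1, Fam114a1 and Nedd9 (0.99), for Jdp2 Tpm1, Lgals1 and Cald1 (0.98 to 0.99), and for Batf3 Tcim and Rgs3 (0.98). Those for Fosl1 were AC154486.3, Zfp950 and Shisa4 (0.95 to 0.96). The values were lower for Junb (E2f7, Ghr and Gatm, 0.93 to 0.94) and Jund (Polr3gl, Acd and Eif1, 0.84 to 0.87).

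The promoters were searched for the letters that AP-1 and related dimers bind. RefSeq windows of 300 bases, 250 before and 50 from the start of the gene on (GRCm38.p6), were found for 9 of the 10 members, with 3 windows for Jdp2. Both strands were searched. TGACTCA, the TPA response element, was in 0 of the windows of these 9 genes and in 5.20% of 32851 promoters of the same length. TGACGTCA, the cAMP response element, was in 0 of them and in 1.79% of all promoters. TGACATCA, a variant of it, was in that of Jun alone (3.62% of all promoters), and the CArG box, bound by SRF, in 0 (1.63%). TGACG, the first letters of the cAMP response element and part of TGACGTCA, was in those of Fos, Fosb, Junb, Atf3 and Jdp2 (20.8% of all promoters). In Jdp2 only the second of the 3 windows held it. The shares of all promoters are of single windows, so that a gene with 3 windows is not matched to them. A match is not a bound site. Letters outside these windows were not searched, so that a count of 0 does not mean that a gene lacks the site. This holds for the CArG box and Fos as well, since sites more than 250 bases before the start could not be found. The windows of Fos (chr12:85473640-85473939, plus strand), Fosb (chr7:19309996-19310295, minus strand) and Jun (chr4:95052173-95052472, minus strand) are shown because these genes rose together in HB, and that of Atf3 (chr1:191183284-191183583, minus strand) because it led the non-JUN genes in HE1. Each is written 5′ to 3′ on the strand of the gene, with TGACG or TGACATCA on either strand in capitals.
Fos: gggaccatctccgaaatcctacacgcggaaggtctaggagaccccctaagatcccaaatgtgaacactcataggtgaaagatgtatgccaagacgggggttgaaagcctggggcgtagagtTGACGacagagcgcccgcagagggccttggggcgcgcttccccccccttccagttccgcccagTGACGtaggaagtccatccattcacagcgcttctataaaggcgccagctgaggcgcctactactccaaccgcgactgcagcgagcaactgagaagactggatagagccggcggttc
Fosb: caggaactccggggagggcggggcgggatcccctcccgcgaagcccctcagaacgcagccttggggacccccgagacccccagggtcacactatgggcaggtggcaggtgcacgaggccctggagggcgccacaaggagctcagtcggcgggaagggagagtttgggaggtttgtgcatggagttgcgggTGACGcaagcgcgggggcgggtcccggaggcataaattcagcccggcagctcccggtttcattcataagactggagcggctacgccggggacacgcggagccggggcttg
Jun: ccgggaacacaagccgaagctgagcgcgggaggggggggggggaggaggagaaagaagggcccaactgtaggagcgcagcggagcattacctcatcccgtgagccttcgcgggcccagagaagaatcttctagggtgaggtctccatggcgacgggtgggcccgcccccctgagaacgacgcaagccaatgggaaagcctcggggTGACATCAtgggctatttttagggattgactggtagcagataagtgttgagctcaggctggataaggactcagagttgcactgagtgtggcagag
Atf3: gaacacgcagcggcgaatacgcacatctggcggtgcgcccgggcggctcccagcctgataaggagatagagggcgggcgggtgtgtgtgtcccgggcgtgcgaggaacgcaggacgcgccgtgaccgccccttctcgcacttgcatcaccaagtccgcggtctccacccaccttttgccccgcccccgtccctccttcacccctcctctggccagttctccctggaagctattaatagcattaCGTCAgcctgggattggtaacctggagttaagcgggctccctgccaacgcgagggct
Fos had the letters at −129 to −125 and at −66 to −62 from the RefSeq start, Fosb at −60 to −56, Jun at −45 to −38 and Atf3, on the other strand, at −7 to −3. The RefSeq start of Atf3 lies 34706 bases downstream of the first base of the gene in the count tables. That of Jund lies 1210 bases upstream of it, so that its window ends before the counted gene, and those of Fosl2, Batf3 and the third Jdp2 window lie 671, 567 and 991 bases downstream.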

How the data were processed

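Nuclear RNA-seq of 10 libraries, 2 per stage, was analysed. The authors removed rRNA reads with RiboDetector, trimmed reads with Trimmomatic, mapped the rest on mm10 by HISAT2 (v2.2.1) and used featureCounts to count read pairs on Ensembl exons. The deposited counts are not normalized and were made in the reverse-stranded mode, with a pair that overlapped several genes counted on each. Fosl1, Jun, Jund and Jdp2 overlap exons of antisense genes, which this mode keeps apart, and no member overlaps a gene on its own strand. The authors also deposited a matrix with 1 expression score per stage and gene, the mean log2 CPM of limma-voom set back on the CPM scale, which was used to find the members and for 1 alternative.

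Counts were scaled with TMM and fitted with stage as the only term by the quasi-likelihood method of edgeR (v4.0.16; R v4.3.3), on the genes kept by filterByExpr, with 5 residual degrees of freedom. The Benjamini-Hochberg adjustment of the F test covered all 22596 tested genes, and calls needed 2-fold or more and an adjusted p under 0.05 (any stage: adjusted p alone). The study used limma-voom. CPM are counts scaled by the effective library size, and log2 CPM used a prior count of 2. The model was tested on simulated data. Alternatives were limma-voom (v3.58.1), DESeq2 (v1.42.0), library totals, no filter, only genes of the authors' matrix, only the 4 libraries compared, a replicate block, no minimum fold, and the omission of each library, where a lone library is assumed to vary like the others. All members are named. Of each other list the up to 3 called genes with the largest absolute log2 fold change per comparison and the most abundant gene are named, and further values of listed genes (Srf, and Arc, Egr3 and Hspa1a per library) were added after their values were seen. Results of some genes that these rules select are not reported. Genes most like a member had a mean log2 CPM of at least 1 and the highest Pearson correlation over the 10 libraries. Members and lists were chosen with earlier results of these data known. Figures and summaries were made with Python (v3.11.15), pandas (v2.3.3), numpy (v2.4.6) and matplotlib (v3.10.9).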

Additional observations from a re-analysis of the deposited data

How the results depend on the processing

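Of 850 log2 fold changes of a member in a comparison under an alternative, 787 kept their direction and their side of the thresholds, 26 lost a call, 19 gained one and 18 changed sign. The numbers of all genes called moved with the settings too. Of all genes 1217 were lower in HE2 than in HE1, with 1809 by DESeq2, 1329 by limma-voom and 2864 without the filter. With only the 4 libraries compared 171 were lower. Numbers of members called moved as follows. Higher in HE1 than in HB were 5, with 4 by library totals, 6 without a minimum fold and 2 to 5 with a library left out, and lower 1, with 1 to 2 so and 2 without a minimum fold. Lower in HE2 than in HE1 was 1, with 2 by DESeq2, 3 by limma-voom, 6 without the filter, 0 with only the 4 libraries compared, and 0 to 5 with a library left out. Lower in HP than in HE2 were 0, with 1 without the filter and 0 to 1 with a library left out, and members lower against HE1 were 4, with 5 without the filter (Fosl1 added, −1.49), 5 without a minimum fold and 0 to 4 with a library left out. Lower in HB than in ES were 0, with 1 without the filter and 1 with only the 4 libraries compared. Some calls without the filter were of members whose libraries overlapped between the stages, such as Fosl1 in HE1 and HP. The cause of these moves was not tested. Signs changed only where no call was made. Between HE2 and HP, Fosb had −0.0813 by limma-voom, and with a library left out ranges were −0.62 to 0.18 for Fos, −0.99 to 0.88 for Fosb, −0.55 to 1.98 for Fosl1, −0.24 to 0.51 for Fosl2, −0.56 to 0.0306 for Jun, −0.32 to 0.0916 for Jund, −1.79 to 0.27 for Atf3 and −0.62 to 0.35 for Jdp2. Jun ranged from −0.57 to 0.0711 between HE1 and HE2. Jund ranged from −0.10 to 0.19 between ES and HB and from −0.22 to 0.0875 between HB and HE1, where it had 0.000917 on the genes of the authors' matrix. Library totals moved the median of all tested genes by less than 0.1 on the log2 scale against TMM in each comparison. With the replicate block, 4 members were higher in HE1 than in HB, Batf3 missing the threshold (1.77, adjusted p = 0.0570), and no other call of a member changed. Deviations of same-numbered libraries from their stage means correlated with −0.32 to 0.21 over the 10 pairs of stages, the highest for HB with HE2 (0.21), and whether equal numbers share a culture is not given. Depth limits Fosl1 and Batf3, with 3 to 13 counts in 3 and 2 libraries.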
